A study of Homo sapiens with 12 samples.

Results

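HOX genes encode homeodomain transcription factors that give cells along the body axis their positional identity. Every probe whose annotated symbol was HOXA, HOXB, HOXC or HOXD followed by a number was taken, which gave 29 genes on 36 probes, of 20045 named genes and 47323 probes in all. The 29 genes were 10 of the HOXB, 9 of the HOXC and 9 of the HOXD cluster, and from the HOXA cluster HOXA2 alone, because the other HOXA genes were not analysed here. RNA came from OE33, a cell line of Barrett's adenocarcinoma of the esophagus, and OE21, a line of esophageal squamous cell carcinoma. Each line received a pool of 4 siRNA sequences against STAT3, or a negative control siRNA that the labels call scrambled, at 100 nM in 2 transfections. RNA was taken 72 h after the first transfection. The 4 groups were OE33 siRNA, OE33 control, OE21 siRNA and OE21 control, with 3 Illumina BeadChip arrays each from experiments that the design text calls biologically independent. The reagent was DharmaFECT for OE33 and siPORT NeoFX for OE21, and its effect cannot be told apart from that of the line. A single line stood for each tumour type. In RNA of whole cultures, fewer expressing cells and less RNA per cell cannot be told apart.

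The human HOX genes lie in 4 clusters, each on its own chromosome. Genes of the same number in different clusters are paralogs that arose by duplication of an ancestral cluster. Low-numbered genes act in the hindbrain and anterior trunk and high-numbered genes in the posterior trunk, limbs and genital tract. Polycomb complexes keep silent HOX genes off, trithorax complexes keep active ones on, and retinoic acid switches on the low-numbered end in the embryo. In adult epithelia, carcinomas included, part of each cluster often stays expressed.

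Levels are log2 intensities after background correction and quantile normalisation, and a probe was called detected on an array where its deposited detection p was under 0.01. Between 18034 and 19149 probes were detected per array (38.1 to 40.5%), and arrays of a group correlated at 0.974 to 0.988. The lowest detected level lay between 4.48 and 4.59, so levels near 4 are background. The second OE33 control array stood apart from the other 5 OE33 arrays, at 54.9 on a first principal component that held 56.6% of the OE33 variance, against -16.3 to -0.73 for the others. STAT3 read 9.10, 8.87 and 9.05 in OE33 siRNA cells, against 9.04, 10.26 and 9.36 in OE33 controls, and the groups overlapped (log2 difference -0.55, SE 0.30, adjusted p 0.991). STAT3 read 6.76, 6.77 and 7.47 in OE21 siRNA cells, against 9.23, 8.90 and 9.24 in OE21 controls, with no overlap (log2 difference -2.12, SE 0.23, adjusted p 0.278). The keratins KRT5 and KRT8 followed the labels: KRT5, of basal squamous cells, was detected on none of the OE33 arrays and on all 6 OE21 arrays, and KRT8, of simple epithelia, showed the opposite. Other markers differed in level only: KRT13, KRT18, KRT19 and AGR2 were detected on all 12 arrays. KRT19 averaged 14.14 in OE33 controls and 11.28 in OE21 controls, and KRT13 5.66 and 10.86. Summed linear levels of the 4 squamous markers ran from 693 to 1915 over OE33 arrays and from 11970 to 23950 over OE21 arrays, and those of the 10 columnar markers from 22870 to 26110 and from 1375 to 5784. Intestinal markers were incomplete in OE33, where CDX2, KRT8, KRT18, KRT19 and AGR2 were detected on all 6 arrays and KRT20, VIL1, CDX1, TFF3 and CDH17 on none. Of 4 endothelial markers VWF alone was detected, on all 6 OE21 arrays. Of 5 blood markers CD14 was detected on all 12 arrays, CD79A on 8 and LYZ on 4, and PTPRC and CD3E on 0. Of 6 fibroblast markers COL1A2 was detected on 7 arrays, COL1A1 on 4 and DCN on 2, and COL3A1, LUM and PDGFRB on 0.

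OE33 expressed a run of HOXB genes together with HOXC genes and HOXA2, and OE21 expressed HOXC genes, part of HOXB and HOXD11. On all 6 arrays of OE33, a probe was detected for HOXA2, for 6 of 10 HOXB genes, for 6 of 9 HOXC genes and for 0 of 9 HOXD genes. On all 6 arrays of OE21 the counts were 3 of 10 HOXB genes, 5 of 9 HOXC genes and 1 of 9 HOXD genes, and HOXA2 was detected on 2 of 6. In total 13 of 29 genes were detected on every OE33 array and 9 of 29 on every OE21 array. The 7 genes detected on all arrays of both lines were HOXB4, HOXB5, HOXB7, HOXC4, HOXC6, HOXC8 and HOXC13. The 6 genes detected on no array were HOXB1, HOXC12, HOXD1, HOXD9, HOXD12 and HOXD13. With a detection threshold of 0.05 the HOXD counts became 1 in OE33 and 3 in OE21. Detection followed intensity closely but not exactly (rank correlation from -0.99 to -0.989 per array), and the brightest HOX value that missed the threshold was 5.95, for HOXB3 in OE21 controls. A probe that was not detected has a bound and not a level.

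**Figure D1:**
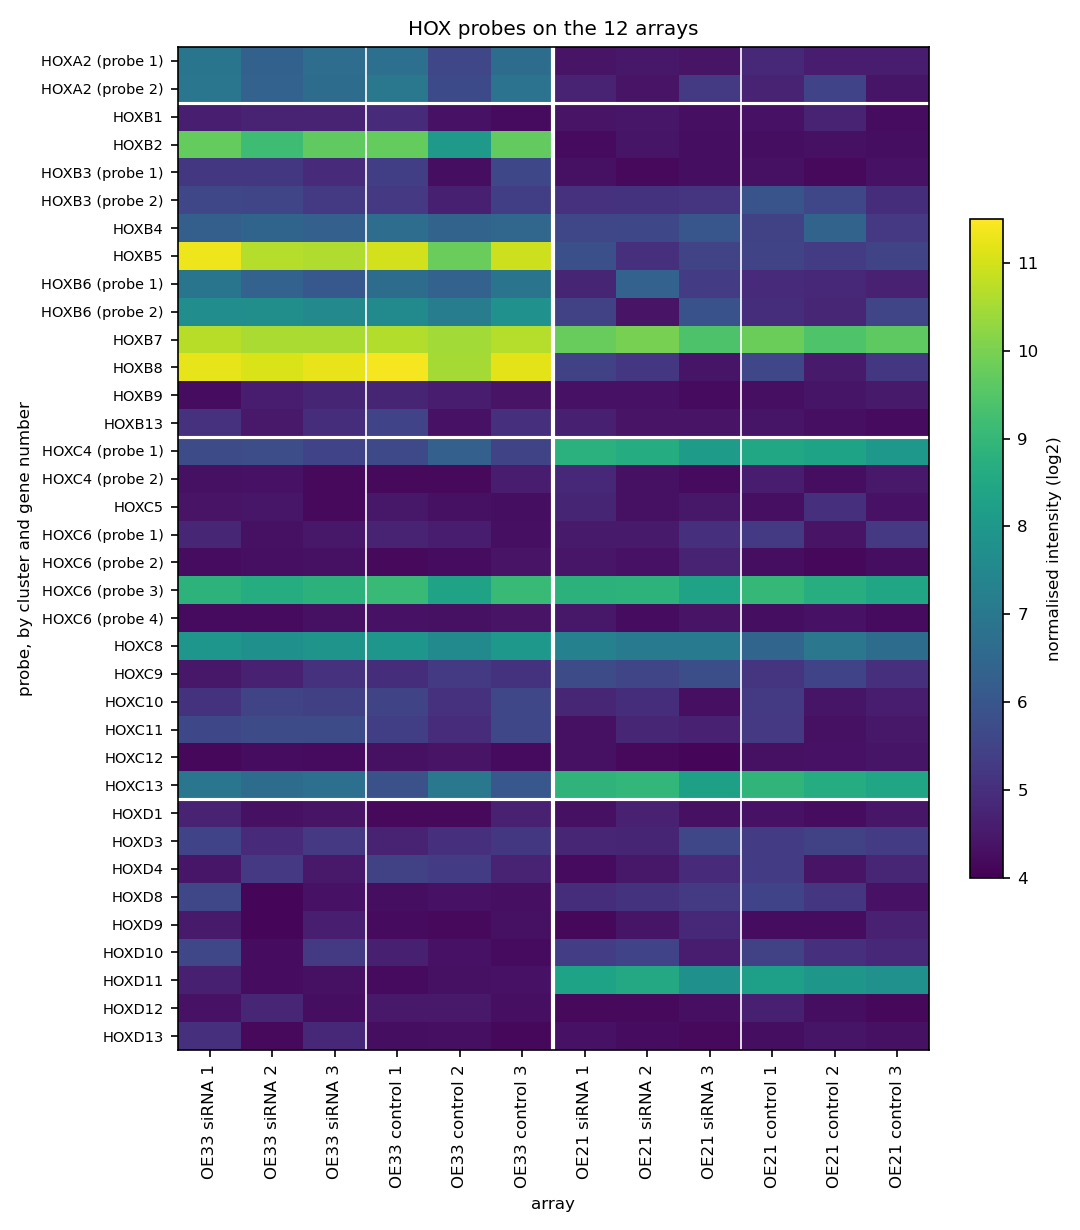
Level of each of the 36 HOX probes (rows, ordered by cluster and gene number) on each of the 12 arrays (columns, OE33 left of OE21, siRNA left of control), coloured by normalised log2 intensity. HOXB2, HOXB5 and HOXB8 are bright in OE33 and dim in OE21, and HOXD11 is bright in OE21 only, at 7.76 to 8.53.

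Of the 29 genes, 19 passed the filter for comparing the lines, a detection p under 0.01 on at least 3 of the 12 arrays. Called means an adjusted p under 0.05 over the 12322 genes tested. Between control cells, 8 HOX genes were higher and 3 lower in OE33 than in OE21, where 25% of all genes tested were higher and 24.2% lower. Between siRNA cells, which are other arrays, 9 were higher and 4 lower, where 25.6% of all genes were higher and 25.2% lower. In either direction, the 11 and 13 HOX genes called stand against 49.2% and 50.8% of all genes. The 3 arrays of one line lay apart from those of the other for 12 of the 19 between controls and for 15 between siRNA cells, against 55.3% and 61.5% of all genes. Of the 19, 11 passed the filter in both lines. Another 5 passed through OE33 alone (HOXA2, HOXB2, HOXB3, HOXC10 and HOXC11) and 3 through OE21 alone (HOXD8, HOXD10 and HOXD11). Genes of the last 2 kinds were set by the filter to lean towards the line that let them in, though HOXB3 did not between controls. Among the 11 that passed in both lines, 6 were higher and 2 lower in OE33 controls. The median log2 difference of the 19 was 0.62 between controls, against 0.01 over all genes tested. It was 0.62 too with HOXB2, HOXD8, HOXD10 and HOXD11, each detected on no control array of one line, at their bound. That could not move the median, as each bound stayed on its own side of it. HOXB3, detected on no OE21 control, had no bound.

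**Figure D2:**
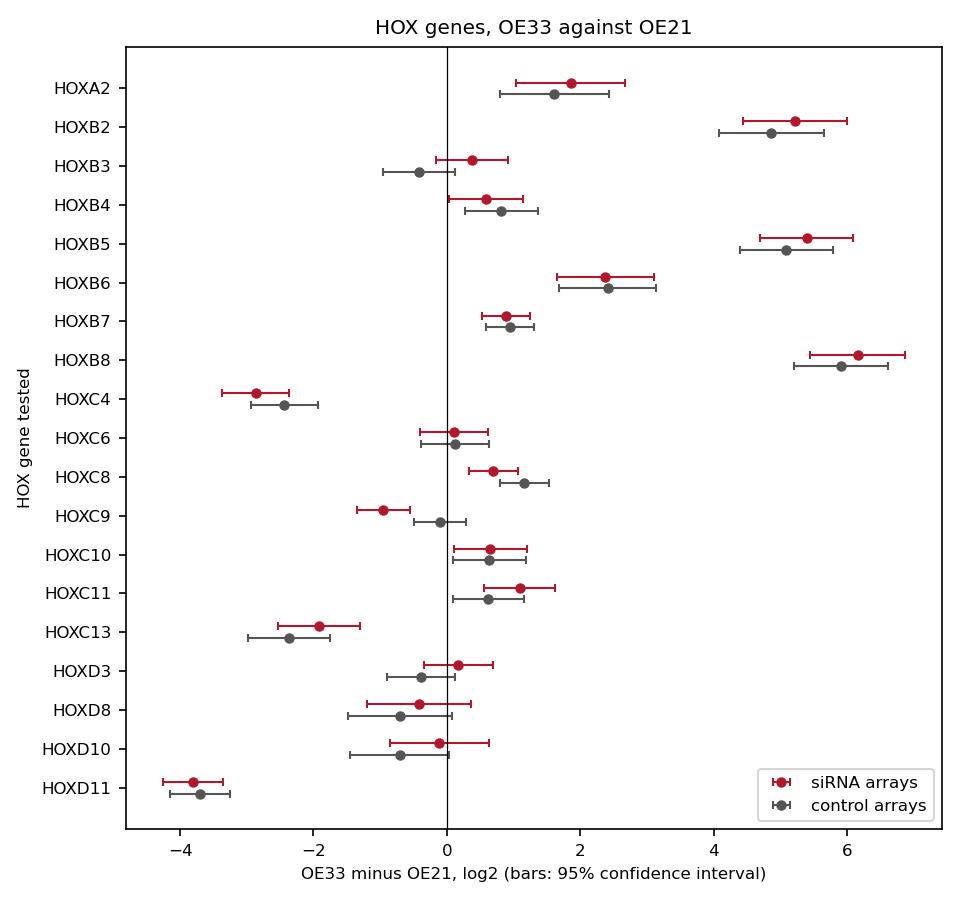
Log2 difference of OE33 minus OE21 (x axis) for the 19 HOX genes tested (rows), for siRNA arrays (red, upper point) and control arrays (grey, lower point), with 95% confidence intervals as bars. HOXB8, HOXB5 and HOXB2 lie near 5 to 6 to the right of 0, and HOXD11, HOXC4 and HOXC13 lie to the left in both sets of arrays. The points of HOXB2, HOXD8 and HOXD11, of HOXD10 between controls and of HOXC11 between siRNA cells are set against background in the dim line. The HOXB3 probe was detected on 0 of 3 OE21 controls.

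HOXA2, which patterns the hindbrain and the second branchial arch, was the only HOXA gene analysed. It read 6.94, 6.36 and 6.64 in OE33 siRNA cells and 6.99, 5.68 and 6.86 in OE33 controls. In OE21 it read 4.72, 4.38 and 5.28 in siRNA cells and 4.75, 5.52 and 4.44 in controls, so every OE33 array was above every OE21 array. The line difference was 1.61 between controls (SE 0.37, adjusted p 0.00374) and 1.85 between siRNA cells (SE 0.37, adjusted p 0.00139). HOXA2 passed the filter through OE33 alone, with 1 of 3 arrays detected in each OE21 group, so its difference leans on background. Its other probe gave 1.66 between controls.

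The HOXB genes from HOXB2 to HOXB8 neighbour each other in the RefSeq gene order, and those called in this cluster were all higher in OE33. HOXB8, known in mouse for immortalising blood progenitors when overexpressed, was bright in OE33 and near background in OE21. It read 11.39, 10.49 and 11.19 in OE33 controls, against 5.61, 4.53 and 5.22 in OE21 controls. In siRNA cells it read 11.21, 11.07 and 11.25 in OE33, against 5.46, 5.18 and 4.42 in OE21. The lowest OE33 array stood far above the highest OE21 array, and as only 4 of 6 OE21 arrays detected the probe, its difference leans on background. It was 5.90 between controls (SE 0.32, adjusted p 3.19e-08) and 6.16 between siRNA cells (SE 0.32, adjusted p 2.03e-08).

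HOXB5, which acts in the neural crest that forms the enteric nervous system, followed the same pattern but was detected on every array of both lines. It read 10.98, 9.79 and 10.93 in OE33 controls, against 5.55, 5.34 and 5.55 in OE21 controls. In siRNA cells it read 11.3, 10.66 and 10.62 in OE33, against 5.84, 5.03 and 5.54 in OE21, so the lines lay apart on all arrays. The difference was 5.09 between controls (SE 0.32, adjusted p 9.72e-08) and 5.39 between siRNA cells (SE 0.32, adjusted p 5.27e-08). HOXB2, a gene of hindbrain patterning, was detected on all 6 OE33 arrays and on 0 OE21 arrays. It read 9.74, 8.06 and 9.71 in OE33 controls, against 4.29, 4.34 and 4.28 in OE21 controls. In siRNA cells it read 9.72, 9.18 and 9.68 in OE33, against 4.21, 4.44 and 4.28 in OE21. Because OE21 gave only background, the difference is a bound, set by the lowest level detected on each OE21 array: at least 25-fold higher in OE33 controls (adjusted p 4e-07) and at least 32.5-fold higher in OE33 siRNA cells (adjusted p 1.99e-07).

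The other HOXB genes of the run differed less. HOXB6, a gene of lateral plate mesoderm and early red cells, read 7.6, 7.18 and 7.81 in OE33 controls, against 4.97, 4.81 and 5.57 in OE21 controls, a difference of 2.41 (SE 0.33, adjusted p 8.66e-05). Between siRNA cells HOXB6 differed by 2.37 (adjusted p 9.23e-05), which leans on background, as 1 of 3 OE21 siRNA arrays detected this probe. Its dimmer probe gave 1.81 between controls and 0.96 between siRNA cells. HOXB7, overexpressed in several carcinomas, was bright in both lines. It read 10.62, 10.46 and 10.66 in OE33 controls, against 9.80, 9.45 and 9.64 in OE21 controls, without overlap (difference 0.95, SE 0.16, adjusted p 0.000508). HOXB4, known for expanding blood stem cells, read 6.68, 6.38 and 6.47 in OE33 controls, against 5.44, 6.39 and 5.24 in OE21 controls, and these groups overlapped. Its difference of 0.82 (SE 0.25, adjusted p 0.0183) lost its call without OE33 control 1 (adjusted p 0.0603), OE21 control 1 (0.0656) or OE21 control 3 (0.0807), and between siRNA cells it was 0.59 (adjusted p 0.0726).

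The 2 HOXB3 probes disagreed. The probe that stood for the gene, being the brighter, gave -0.42 between controls (SE 0.25, adjusted p 0.186, or 0.032 without OE21 control 3) and 0.38 between siRNA cells (adjusted p 0.221). This probe was detected on 1 of 3 OE33 controls and 0 of 3 OE21 controls. Its control difference therefore rests on undetected values and is not a measured difference. The other, detected on 5 OE33 arrays and 0 OE21 arrays, was at least 1.48-fold higher in OE33 controls when probes were tested singly (adjusted p 0.0331). At the ends of the cluster, HOXB1, of the hindbrain, was detected on 0 arrays, and HOXB9 and the posterior gene HOXB13 were each detected on 1 OE33 array and 0 OE21 arrays. From HOXB2 to HOXB8, each gene was detected on 5 or 6 OE33 arrays, and the genes on either side on at most 1. The neighbouring gene SKAP1, an adaptor of T cell signalling that lies beside the cluster, was at least 7.78-fold higher in OE33 controls (adjusted p 1.76e-07). SKAP1 passed the filter through OE33 alone, so that it came out higher there was set by the filter. Among other genes flanking the clusters, CALCOCO2 averaged 7.33 in OE33 controls and 5.80 in OE21 controls, and SNX11 9.47 and 9.45. PRAC1 and TTLL6 were detected on no control array.

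**Figure D3:**
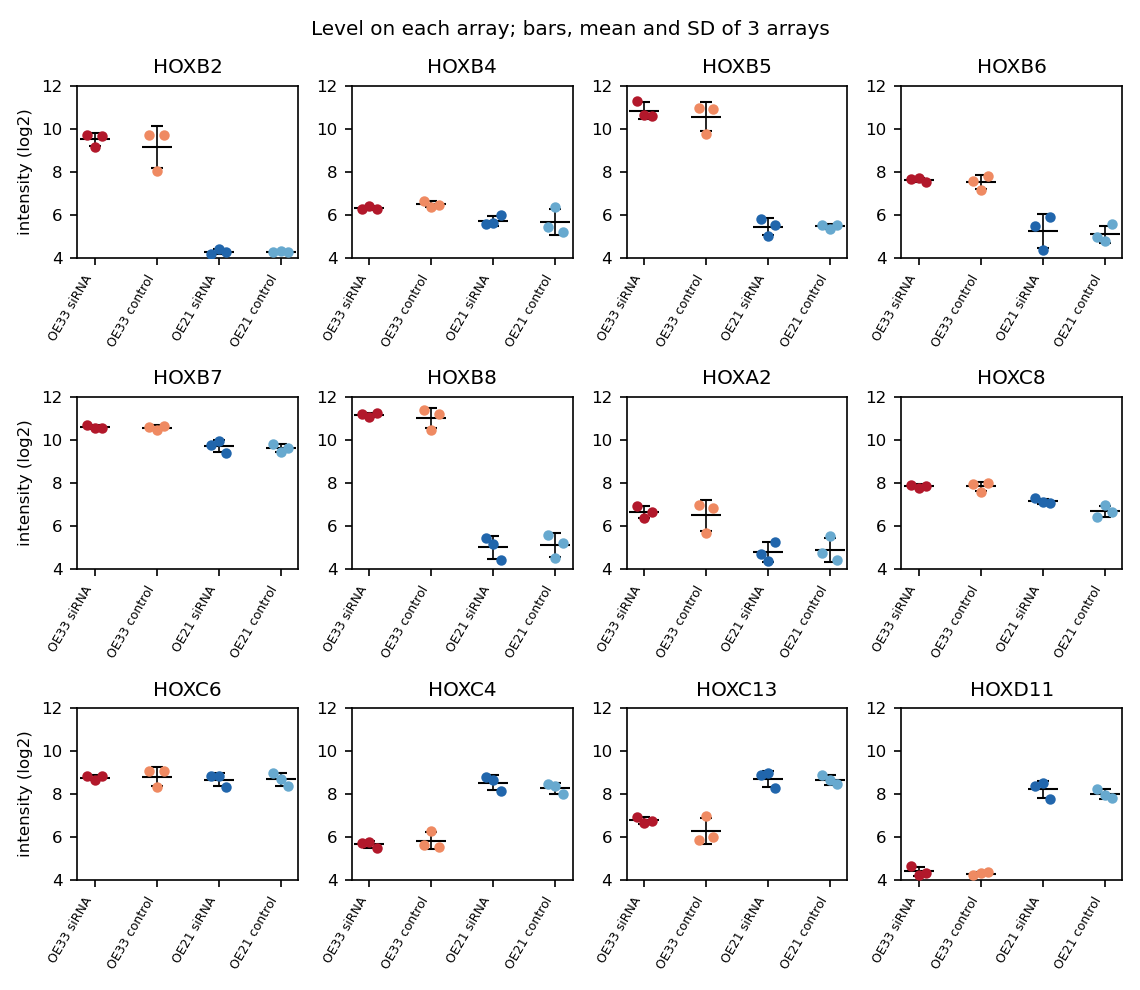
Level of 12 HOX genes on each array (points), with the mean and SD of 3 arrays (bars), in OE33 siRNA, OE33 control, OE21 siRNA and OE21 control cells. HOXB2, HOXB5 and HOXB8 separate the lines by about 5 log2 units or more, HOXC6 does not separate them, and HOXD11 is at background in OE33.

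The HOXC cluster was expressed in both lines, with genes that differed in opposite directions. HOXC4, of the same number as HOXB4, read 5.65, 6.30 and 5.55 in OE33 controls, against 8.46, 8.36 and 8.0 in OE21 controls, and the groups were far apart. In siRNA cells it read 5.72, 5.78 and 5.5 in OE33, against 8.8, 8.65 and 8.14 in OE21. The difference was -2.44 between controls (SE 0.23, adjusted p 4.03e-06) and -2.87 between siRNA cells (SE 0.23, adjusted p 8.94e-07). Its other probe was detected on 0 arrays. HOXC13, required for hair and nail formation, lies at the other end of the cluster and was also lower in OE33. It read 5.87, 7.0 and 6.02 in OE33 controls, against 8.90, 8.63 and 8.45 in OE21 controls (difference -2.37, SE 0.28, adjusted p 2.65e-05), and the siRNA cells differed by -1.92 (SE 0.28, adjusted p 0.00013).

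HOXC8, a gene of the thoracic skeleton in mouse, was higher in OE33. It read 7.94, 7.6 and 8.0 in OE33 controls, against 6.45, 6.97 and 6.64 in OE21 controls, without overlap. The difference was 1.16 between controls (SE 0.17, adjusted p 0.000122) and 0.70 between siRNA cells (SE 0.17, adjusted p 0.00428). HOXC6, a thoracic gene of the same cluster, read 9.07, 8.31 and 9.05 in OE33 controls, against 9.0, 8.68 and 8.40 in OE21 controls. It was bright in both lines, and its difference of 0.12 had a 95% interval of -0.39 to 0.63, and was called only with array weights (0.41, adjusted p 0.0376). Only 1 of its 4 probes was detected on every array, and the other 3 were detected on at most 2 arrays each.

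The remaining HOXC genes lay close to background. HOXC9, which specifies thoracic motor neurons, did not separate the controls (difference -0.10, adjusted p 0.668) and was lower in OE33 siRNA cells. It read 4.49, 4.68 and 5.06 there, against 5.72, 5.58 and 5.80 in OE21 siRNA cells (difference -0.95, SE 0.18, adjusted p 0.00088). As 2 of 3 OE33 siRNA arrays detected HOXC9, this difference leans on background, and with no background correction it was -0.31. HOXC11 read 5.63, 5.72 and 5.75 in OE33 siRNA cells and was detected on none of the OE21 siRNA arrays, at least 2.06-fold higher in OE33 (adjusted p 0.00275). Between controls its difference was 0.62 (adjusted p 0.0532). HOXC10, of lumbar motor neurons, gave 0.64 between controls (adjusted p 0.0525) and 0.65 between siRNA cells (adjusted p 0.0469), a call that did not survive a background offset of 50 (adjusted p 0.0737). Without OE33 control 2 the control differences of HOXC10 and HOXC11 were 0.80 and 0.80, both called (adjusted p 0.0289 and 0.0221), as they were without OE21 control 1 (0.0104 and 0.00448). HOXC10 was also called without OE21 siRNA 3 (0.038). HOXC5 was detected on 1 array and HOXC12 on 0.

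In the HOXD cluster a single gene was clearly expressed, and in OE21 alone. HOXD11, which with its HOXA paralog shapes the forearm and kidney in mouse, read 4.23, 4.33 and 4.37 in OE33 controls, against 8.24, 7.96 and 7.81 in OE21 controls. In siRNA cells it read 4.65, 4.25 and 4.33 in OE33, against 8.36, 8.53 and 7.76 in OE21. It was detected on 0 OE33 arrays and on all 6 OE21 arrays. On group means it was at least 11.4-fold lower in OE33 controls (adjusted p 3.36e-08) and at least 12.3-fold lower in OE33 siRNA cells (adjusted p 2.31e-08). The fitted control difference of -3.70 was -1.83 with no background correction. Its neighbours in the cluster did not share this level. HOXD10 was detected on 0 of 3 OE33 controls and on 3 of 3 OE21 controls. Its group mean was at least 1.5-fold lower in OE33, a bound that leaves out the spread between arrays. HOXD10 was not called (adjusted p 0.103), and the confidence interval of its fitted difference, -1.45 to 0.03, included 0. It was called with the replicate block (adjusted p 0.0456), with only the 6 arrays compared (0.0277) and without OE33 siRNA 2 (0.0416). HOXD8 was detected on 0 of 3 OE33 controls and on 2 of 3 OE21 controls. Its group mean was at least 1.44-fold lower in OE33, but the interval of its fitted difference, -1.48 to 0.08, also included 0. HOXD8 was not called (adjusted p 0.126), but was called without OE21 control 3 (0.0345) or OE33 siRNA 1 (0.0398). HOXD3 differed by -0.39 (adjusted p 0.19). HOXD12, HOXD9, HOXD1 and the digit gene HOXD13 were detected on no array, and HOXD4 on 2 OE33 arrays.

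Promoter windows of 250 bases before the gene start were in the RefSeq table (GRCh38.p14) for 12 of the 29 genes, and the windows of HOXA2, HOXC4 and HOXD11 are printed because these are the genes with a window that were called between the lines between controls. They were searched on both strands for TGATNNAT, a composite site on which HOX proteins bind with their PBX partners, and for TTCNNNGAA, the STAT site. Capitals mark the TGATNNAT match, here in reverse complement. It starts 114 bases before the start of HOXA2 (window chr7:27102684-27102933, minus strand) and 67 bases before that of HOXD11 (chr2:176107030-176107279, plus strand). HOXC4 (chr12:54016638-54016887, plus strand) has none and shares its window with HOXC5.
HOXA2: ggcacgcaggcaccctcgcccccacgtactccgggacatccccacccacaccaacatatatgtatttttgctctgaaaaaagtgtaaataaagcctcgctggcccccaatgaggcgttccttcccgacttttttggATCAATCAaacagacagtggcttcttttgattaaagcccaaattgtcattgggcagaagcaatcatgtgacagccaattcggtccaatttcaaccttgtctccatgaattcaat
HOXC4: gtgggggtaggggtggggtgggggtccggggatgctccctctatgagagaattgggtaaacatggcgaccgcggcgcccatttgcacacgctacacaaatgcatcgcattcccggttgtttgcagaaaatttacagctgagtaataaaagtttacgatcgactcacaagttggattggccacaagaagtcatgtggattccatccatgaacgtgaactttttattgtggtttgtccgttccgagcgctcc
HOXD11: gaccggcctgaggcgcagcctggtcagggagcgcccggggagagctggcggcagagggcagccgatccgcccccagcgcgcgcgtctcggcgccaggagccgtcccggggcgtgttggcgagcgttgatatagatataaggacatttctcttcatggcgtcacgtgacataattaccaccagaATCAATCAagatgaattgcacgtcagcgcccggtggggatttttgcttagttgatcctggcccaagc
The composite letters were in 3 of the 12 HOX windows, the other being that of HOXB1, and in 6.47% of 35116 windows of the same length. The 12 count the window shared by HOXC4 and HOXC5 once for each gene. No gene from HOXB2 to HOXB8 had a window. The STAT letters were in 0 of the 12 and in 6.57% of all. The HOX windows held a median of 18.5 CpG dinucleotides, against 11 over all windows, at a median GC content of 58.2% against 58.0%. A match describes these letters and shows no binding.

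HOX proteins bind DNA with TALE partners of the PBX, MEIS and PKNOX families, and 6 of the 8 measured were tested. Between controls PBX4 was higher in OE33 (1.22, adjusted p 0.0023), while MEIS1 (-1.5, adjusted p 0.000655), PKNOX1 (-0.78, adjusted p 0.00122) and PBX3 (-0.76, adjusted p 0.00753) were lower. Of the ParaHox and caudal genes, close relatives of HOX genes, some of which act in the gut, 2 of 6 were tested. Both passed the filter through OE33 alone, so that they came out higher there was set by the filter. CDX1, CDX4, GSX1 and GSX2 were detected on no array. CDX2, of intestinal identity, was at least 8.04-fold higher (adjusted p 4.6e-09) and PDX1, of pancreas and duodenum, at least 9.06-fold higher (adjusted p 3.41e-07), both at background in OE21. The 3 HOX-linked noncoding RNAs tested, HOTAIR, HOTTIP and HOXA11-AS, were not called between the lines.

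Among regulators of the clusters, 18 Polycomb genes were tested, of which 6 were higher and 4 lower in OE33 controls, with a median difference of 0.26 against 0.01 over all genes. CBX2, a chromobox subunit of Polycomb complex PRC1, averaged 5.05 ± 0.40 in OE33 controls and 9.14 ± 0.32 in OE21 controls (SD, n = 3 each), a difference of -4.09 (adjusted p 2.21e-08). As 2 of 3 OE33 controls detected CBX2, its difference leans on background. PCGF2, another PRC1 subunit, was 2.00 higher in OE33 (adjusted p 1.38e-07). Of 11 trithorax and related genes 3 were higher and 0 lower, led by MEN1 at 1.35 (adjusted p 6.67e-05), which encodes menin, a partner of the MLL methyltransferase. Apart from these 3 called genes, no trithorax gene tested reached an unadjusted p under 0.05, the nearest being RBBP5 at -0.31 (adjusted p 0.183). Of 11 retinoid genes 2 were higher and 4 lower. TGM2, a retinoid-induced transglutaminase, was detected on all 3 OE33 controls and on 1 OE21 control, and its difference of 4.58 (adjusted p 1.02e-07) leans on background. CYP26B1 and CYP26A1, which break down retinoic acid, were at least 8.12-fold (adjusted p 9.03e-07) and at least 5.90-fold (adjusted p 0.000224) lower in OE33 controls, and the receptor gene RARB at least 4.19-fold lower (adjusted p 5.27e-05). CYP26B1, CYP26A1 and RARB passed the filter through OE21 alone, so that they came out lower in OE33 was set by the filter. Of 12 genes that flank the clusters 6 were higher and 2 lower, with SKAP2, beside HOXA, 1.57 higher (adjusted p 4.55e-05). With 49.2% of all genes called, these counts do not set the lists apart.

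The STAT3 siRNA moved no HOX gene past the threshold in either line. In OE33, 16 HOX genes were tested and 0 were called by limma, against 0% of 10634 genes tested. None of the 16 reached an unadjusted p under 0.05, which 2.75% of all genes did, and none of the alternatives run, array weights among them, called any of the 16. The smallest adjusted p among them was 0.991. In OE21, 14 were tested and 0 were called by limma, against 0% of 11179 genes tested. Of the 14, 2 had an unadjusted p under 0.05, where 11.3% of all genes did.

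Those 2 genes in OE21 were HOXC8 and HOXC9. HOXC8 read 7.30, 7.12 and 7.07 in siRNA cells, against 6.45, 6.97 and 6.64 in controls, without overlap (difference 0.48, 95% interval 0.07 to 0.88, adjusted p 0.394). HOXC9 read 5.72, 5.58 and 5.80 in siRNA cells, against 5.14, 5.5 and 5.03 in controls, also without overlap (difference 0.47, 95% interval 0.08 to 0.87, adjusted p 0.383). Groups lay apart for 16.9% of all genes tested in OE21, so 2 of 14 is near the background. Over the 14 genes the differences ran from -0.32 (HOXD3) to 0.48, with a median of 0.07 against 0.00 over all genes. The widest interval was that of HOXB6, -0.81 to 1.10. STAT3 itself, at -2.12, was not called. The number of genes at an unadjusted p under 0.05 in OE21, 1259 with all arrays, was 1944 without siRNA 3, 667 without siRNA 1, 751 without siRNA 2 and 740 without control 3.

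In OE33 the differences ran from -0.38 (HOXC9) to 0.48 (HOXC13), with a median of 0.12 against -0.01 over all genes. HOXC11 was the only gene whose groups lay apart, at 5.63, 5.72 and 5.75 in siRNA cells, against 5.39, 4.94 and 5.59 in controls (difference 0.40, adjusted p 0.991), where 7.72% of all genes did. HOXC13 read 6.94, 6.66 and 6.73 in siRNA cells, against 5.87, 7.0 and 6.02 in controls. The second control array was the highest of its group there, and without it the difference was 0.83 (adjusted p 0.718). Of the 15 HOX probes detected on every OE33 array, that array was the lowest in 11 and the highest in 2, where over 12130 such probes it was the lowest in 34.4% and the highest in 33.9%. Its distance from the mean of the other 5 arrays ran from -1.54, for HOXB2, to 0.66, for HOXC4. Without it the siRNA differences turned negative for HOXB2 (-0.19, against 0.36 with it), HOXB5 (-0.10, against 0.29) and HOXA2 (-0.28, against 0.14), none called either way. Of the 4 squamous markers, KRT5 and KRT14 were not detected on it, KRT13 read 4.84 against a mean of 5.9 on the other 5 OE33 arrays, and SFN read 10.9 against 9.45. Their summed linear level on it, 1915, was the highest of the OE33 arrays. Its summed level of the 5 blood markers, 106, was the lowest, with CD14 at 5.62 against 7.99. The part of these in the HOX values was not tested.

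**Figure D4:**
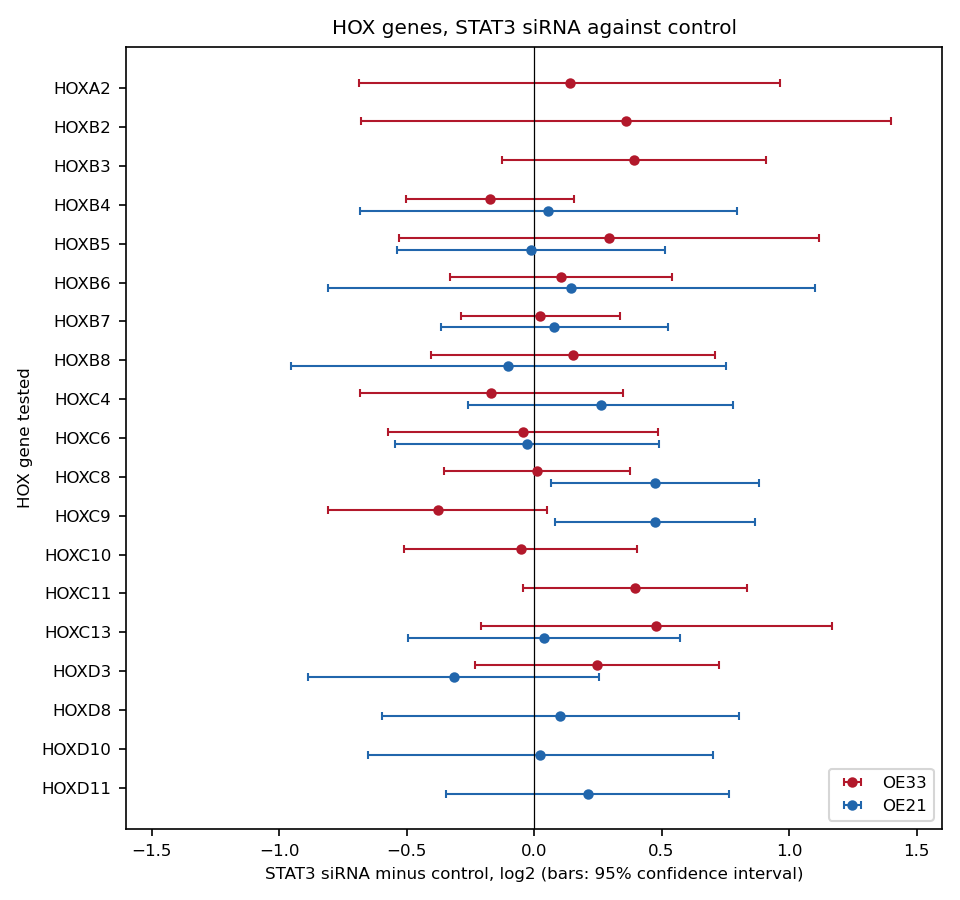
Log2 difference of STAT3 siRNA minus control (x axis) for each HOX gene tested (rows), in OE33 (red, upper point) and OE21 (blue, lower point), with 95% confidence intervals as bars. All intervals include 0 except those of HOXC8 and HOXC9 in OE21, whose adjusted p values are 0.394 and 0.383.

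The difference of the siRNA effects between the lines was tested directly. None of the 19 genes was called by limma, against 0% of 12322 genes, and 2 had an unadjusted p under 0.05, where 6.73% of all genes did. HOXC9 gave -0.38 in OE33 and 0.47 in OE21, a difference of -0.85 (SE 0.25, p 0.00599, adjusted p 0.574). As 2 of 3 OE33 siRNA arrays detected HOXC9, this value leans on background. HOXB3 gave a difference of 0.80 (SE 0.35, p 0.0419, adjusted p 0.731), with a probe detected on 0 of 3 OE21 controls. The other HOXB3 probe, detected on 0 OE21 arrays, gave 0.03.

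How large the line differences are depended on how background was treated. For HOXB5, detected on every array, the difference between controls was 5.09 with an offset of 16 added after background correction, 4.3 with an offset of 50, 3.65 with no background correction and 3.56 on the authors' normalised intensities. For HOXC4, also detected on every array, the same 4 settings gave -2.44, -1.91, -1.48 and -1.41. HOXB7, bright in both lines, moved little, between 0.95 and 0.88. The direction held under all 4 settings for the 11 genes called between controls.

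**Figure D5:**
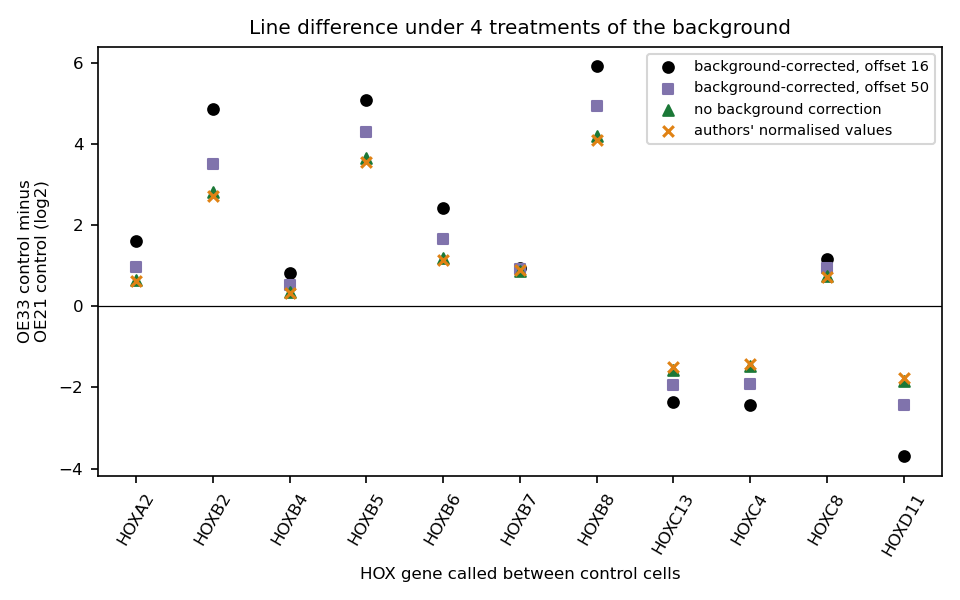
Log2 difference of OE33 control minus OE21 control (y axis) for the 11 HOX genes called (x axis), under 4 treatments of the background (black circles, offset 16; purple squares, offset 50; green triangles, none; orange crosses, the authors' normalised values). HOXB5 lies between 3.56 and 5.09 and HOXB7 between 0.88 and 0.95, and the points of HOXB2 and HOXD11 are set against background in the dim line and are no measured difference.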

How the data were processed

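The HOX genes and the gene lists were chosen with earlier results of these data known. Per the labels' protocols, RNeasy Plus RNA was labelled as biotinylated cRNA with a MessageAmp kit. For every array the authors deposited linear probe intensity values without normalisation, each with a detection p-value. They also deposited normalised intensity values, on the linear scale and not centred (array medians 106 to 107, rank correlation with the same array's first table at least 0.99996). The sources used here do not say how the detection p-value or the normalised values were computed. All 12 arrays carry the same array identifier, so no slide batch could be tested. RefSeq gives gene order and promoter windows, and all 36 HOX probes matched its gene table by Entrez identifier. Of 47323 probes, 30111 had 1 symbol, 8 several and 17200 none, and 4 lacked a value.

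The neqc function (limma 3.58.1, R 4.3.3) corrected the background, which it infers from the detection p, added an offset of 16 and quantile normalised the arrays. To enter a fit, a probe needed a detection p below 0.01 on 3 or more of the arrays fitted, and the probe with the highest mean stood for each symbol. limma's lmFit and eBayes tested siRNA against control on 6 arrays per line, and the line differences and the interaction on all 12, two-sided, with Benjamini-Hochberg adjustment over all genes tested. Where no array of a group detected a gene, the fold is a bound against the higher of each array's lowest detected level and the probe's own. This bound compares group means at an offset of 16 and leaves out the spread between arrays. Replicate numbers were not taken as pairs, because same-numbered siRNA and control arrays correlated at 0.08, 0.31 and 0.12 in OE33 and at 0.44, -0.37 and 0.49 in OE21. Across numbers in OE21, siRNA 2 and control 1 correlated at 0.62, siRNA 3 and control 2 at 0.44, and siRNA 3 and control 1 at -0.71, a split across the treatment that the fit does not model. The alternatives were no background correction, an offset of 50, the authors' normalised intensities, other filters, single probes, array weights, other sets of arrays, a replicate block, and leaving out each array. The named genes are all members, and up to 4 of each other list with the smallest unadjusted p between the lines. Further genes of those lists, cell type markers among them, are named for their detection or level only.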

Additional observations from a re-analysis of the deposited data

How the results depend on the processing

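The HOX counts called higher between controls ran from 7 to 11 under the alternatives (8 as reported) and from 7 to 10 with an array left out. Those called lower ran from 3 to 4 (3 as reported) and from 3 to 5 with an array left out, the 5 without OE21 control 3. Between siRNA cells they ran from 8 to 11 higher (9 as reported) and stayed at 4 lower, or from 8 to 10 and 4 to 5 with an array left out. No HOX gene was called for the siRNA or for its difference between lines under any alternative, while over all genes array weights called 270 in OE21 and 229 in the interaction. The replicate block gave 8 higher and 4 lower in both line comparisons and 0 elsewhere. With a detection threshold of 0.05 the HOXD genes on all 6 arrays became 1 in OE33 and 3 in OE21. HOXB4 between controls and HOXC10 between siRNA cells lost their calls under several alternatives. Signs turned for 96 values, none of them called, for genes with differences of at most 0.36 in size. The cause was not tested. For the OE33 siRNA effect, turned values were with array weights HOXA2 -0.21, HOXB2 -0.13, HOXB5 -0.071, HOXB6 -0.12, HOXB7 -0.045, HOXB8 -0.031, HOXC4 0.063 and HOXC8 -0.12. With an array left out, the OE33 siRNA effect ranged over -0.22 to 0.072 for HOXC10, -0.29 to 0.088 for HOXC6, -0.28 to 0.38 for HOXA2, -0.19 to 0.64 for HOXB2, -0.10 to 0.50 for HOXB5, -0.069 to 0.24 for HOXB6, -0.036 to 0.064 for HOXB7, -0.12 to 0.34 for HOXB8, -0.31 to 0.066 for HOXC4 and -0.11 to 0.087 for HOXC8. For the OE21 siRNA effect, turned values were with no background correction HOXB5 0.004, with an offset of 50 HOXB5 0.0026, on the authors' intensities HOXB5 0.011, with array weights HOXB4 -0.12, HOXB5 0.18, HOXB8 0.33 and HOXC6 0.18. With an array left out, the OE21 siRNA effect ranged over -0.17 to 0.41 for HOXB4, -0.20 to 0.21 for HOXB5, -0.39 to 0.20 for HOXB8, -0.17 to 0.14 for HOXC6, -0.17 to 0.58 for HOXB6, -0.052 to 0.23 for HOXB7, -0.15 to 0.31 for HOXD10, -0.092 to 0.25 for HOXC13 and -0.23 to 0.35 for HOXD8. With an array left out, the line difference between controls ranged over -0.20 to 0.036 for HOXC9 and -0.028 to 0.37 for HOXC6. For the line difference between siRNA cells, turned values were with array weights HOXC6 -0.026. With an array left out, the line difference between siRNA cells ranged over -0.40 to 0.29 for HOXD10 and -0.066 to 0.20 for HOXC6. For the difference of siRNA effects, turned values were with no background correction HOXB6 0.022, on the authors' intensities HOXB6 0.017 and HOXD8 -0.0036, with array weights HOXB2 -0.064, HOXB5 -0.27, HOXB8 -0.39 and HOXC10 -0.38. With an array left out, the difference of siRNA effects ranged over -0.47 to 0.28 for HOXB6, -0.23 to 0.18 for HOXC10, -0.17 to 0.49 for HOXA2, -0.21 to 0.077 for HOXB7, -0.27 to 0.13 for HOXC6, -0.34 to 0.047 for HOXD11, -0.049 to 0.55 for HOXB8, -0.20 to 0.64 for HOXB2, -0.085 to 0.51 for HOXB5 and -0.17 to 0.61 for HOXD8.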
